A study of Rattus norvegicus with 52 samples.

Results

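In the kidneys of rats given a salty diet for 24 hours, 7 genes were singled out because their mean levels differed between the diets with opposite signs in the parent strain and in 1 congenic strain. They are Evi5, Ccdc6, Cpd, Pbrm1, Kpna1, Peli2 and Sppl2a, 7 of 13810 genes with a single symbol on the chips. All probe sets whose platform symbol was one of these names were taken, which gave 21 of 31042 probe sets, between 1 for Ccdc6 and 6 for Pbrm1. The genes were chosen by salt responses measured in these same rats, so those responses, of all probe sets of the 7 genes, are given below as a description, with no test. The strain differences averaged over both diets and the variation among rats of 1 group did not enter the choice and were tested.

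The rats were male and were 40 to 42 days old. ET3x2 and ET3x1 are congenic strains with chromosome material of the R strain on the background of Dahl SS/Jr (S), an inbred rat that becomes hypertensive on salty food. The labels do not state the borders of these segments. ET3x2 had 4 rats on high and 4 on low salt, ET3x1 had 4 and 4, and S had 5 and 5. Low salt was a 0.4% NaCl diet, eaten by all rats from weaning at 30 days, and high salt was a 4% NaCl diet for the last 24 hours. RNA of 1 kidney of each of the 26 rats was read on Affymetrix chips RAE230A and RAE230B, 52 arrays in all. Each chip reads a transcript with sets of short probes, and a gene can have several such probe sets. Levels are log2 signals as deposited, and array medians lay between 7.47 and 7.52 on RAE230A and between 6.34 and 6.40 on RAE230B. No pair of arrays of a chip was near-identical (Pearson r at most 0.998). All 9 tubule markers were above the median of their chip, led by Kap (14.11), Umod (13.32) and Slc34a1 (13.18), while 0 of 4 adrenal and 0 of 4 liver markers were. In whole kidney, fewer cells of a type and less RNA per cell cannot be told apart.

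The 7 genes have unrelated known roles and lie on 7 chromosomes. Evi5 encodes a TBC-domain protein that binds the recycling GTPase Rab11 and acts at the centrosome. Ccdc6 encodes a coiled-coil protein of the DNA damage response, known as a fusion partner of RET in thyroid cancer. Cpd encodes carboxypeptidase D, a membrane enzyme of the trans-Golgi network that trims basic residues from the ends of processed prohormones. Pbrm1 encodes a bromodomain subunit of the PBAF chromatin remodelling complex and is often mutated in human clear cell kidney cancer. Kpna1 encodes an importin alpha, an adaptor that carries proteins with a nuclear localisation signal into the nucleus. Peli2 encodes a Pellino ubiquitin ligase of Toll-like receptor signalling, and Sppl2a an intramembrane aspartyl protease of late endosomes and lysosomes. In the GRCr8 annotation the genes lie on chromosome 14 (Evi5), 20 (Ccdc6), 10 (Cpd), 16 (Pbrm1), 11 (Kpna1), 15 (Peli2) and 3 (Sppl2a). Their genomic spans ran between 44.1 kb for Sppl2a and 146.1 kb for Evi5, with a median of 96.0 kb, against 22.8 kb over 8813 tested genes.

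RefSeq's GRCr8 promoter table held 4 of the 7 genes. The 250 bases before the annotated start of each are shown because the lead probe sets of these genes, defined below, had salt responses of like or mirrored sign. Capitals mark the palindromic E-box CACGTG, the only motif of the 5 searched that 3 of the 4 windows shared.
Ccdc6 promoter, chr20:18527228-18527477, minus strand: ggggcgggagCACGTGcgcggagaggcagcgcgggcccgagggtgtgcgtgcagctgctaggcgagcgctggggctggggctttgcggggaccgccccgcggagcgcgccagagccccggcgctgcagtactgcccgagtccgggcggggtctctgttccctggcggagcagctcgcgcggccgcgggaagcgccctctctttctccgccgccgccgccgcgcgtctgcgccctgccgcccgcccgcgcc
Pbrm1 promoter, chr16:6219683-6219932, plus strand: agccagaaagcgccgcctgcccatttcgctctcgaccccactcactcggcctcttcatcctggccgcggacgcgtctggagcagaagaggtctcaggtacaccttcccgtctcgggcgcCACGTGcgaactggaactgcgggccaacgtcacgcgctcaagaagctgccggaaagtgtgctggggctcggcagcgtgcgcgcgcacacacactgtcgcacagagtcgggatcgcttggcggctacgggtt
Sppl2a promoter, chr3:134646753-134647002, minus strand: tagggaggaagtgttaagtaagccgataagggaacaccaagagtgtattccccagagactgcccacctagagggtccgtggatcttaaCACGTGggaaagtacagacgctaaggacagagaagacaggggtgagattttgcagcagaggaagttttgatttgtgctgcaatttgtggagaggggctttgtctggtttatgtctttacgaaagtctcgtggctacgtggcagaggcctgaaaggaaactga
Peli2 promoter, chr15:23872734-23872983, plus strand: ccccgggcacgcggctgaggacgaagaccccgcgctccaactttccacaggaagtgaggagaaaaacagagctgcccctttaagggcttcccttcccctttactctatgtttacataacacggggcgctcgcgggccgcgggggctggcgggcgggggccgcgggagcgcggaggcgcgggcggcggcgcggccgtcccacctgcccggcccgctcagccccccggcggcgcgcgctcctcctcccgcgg
The E-box began 240 bases before the start of Ccdc6, 162 before that of Sppl2a and 131 before that of Pbrm1. Of 33469 promoter windows of the same length, 5.59% held CACGTG on either strand. The other motifs, searched on both strands, were TGACG (1 of 4 windows, 18.2% of all), GGGCGG (2 of 4, 30.5%), CCAAT (0 of 4, 34.0%) and AGAACA (0 of 4, 17.5%). The E-box genes were not on 1 side of the mirror: the lead salt responses in S rats were positive for Ccdc6 and Pbrm1 and negative for Sppl2a. A match is a description of these letters and not a binding site.

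Each gene is led here by 1 probe set. The probe set whose salt responses in the 3 strains spanned the widest range is called the lead. By the signs of their mean differences the leads split into 2 mirrored sets. High minus low was positive in S rats and negative in ET3x1 rats for Evi5, Ccdc6, Cpd and Pbrm1, and negative in S and positive in ET3x1 for Kpna1, Peli2 and Sppl2a. In ET3x1 it was as small as -0.37 ± 0.23 for Pbrm1 and 0.54 ± 0.28 for Kpna1, and in S 0.51 ± 0.18 for Ccdc6. In ET3x2 rats the lead responses lay between -0.36 and 0.13. Their median absolute size was 0.19 in ET3x2, 1.03 in ET3x1 and 0.79 in S, where the medians over all 15473 probe sets bright enough to be tested were 0.08, 0.13 and 0.08. The plot of levels by rat shows all 7 leads.

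**Figure D1:**
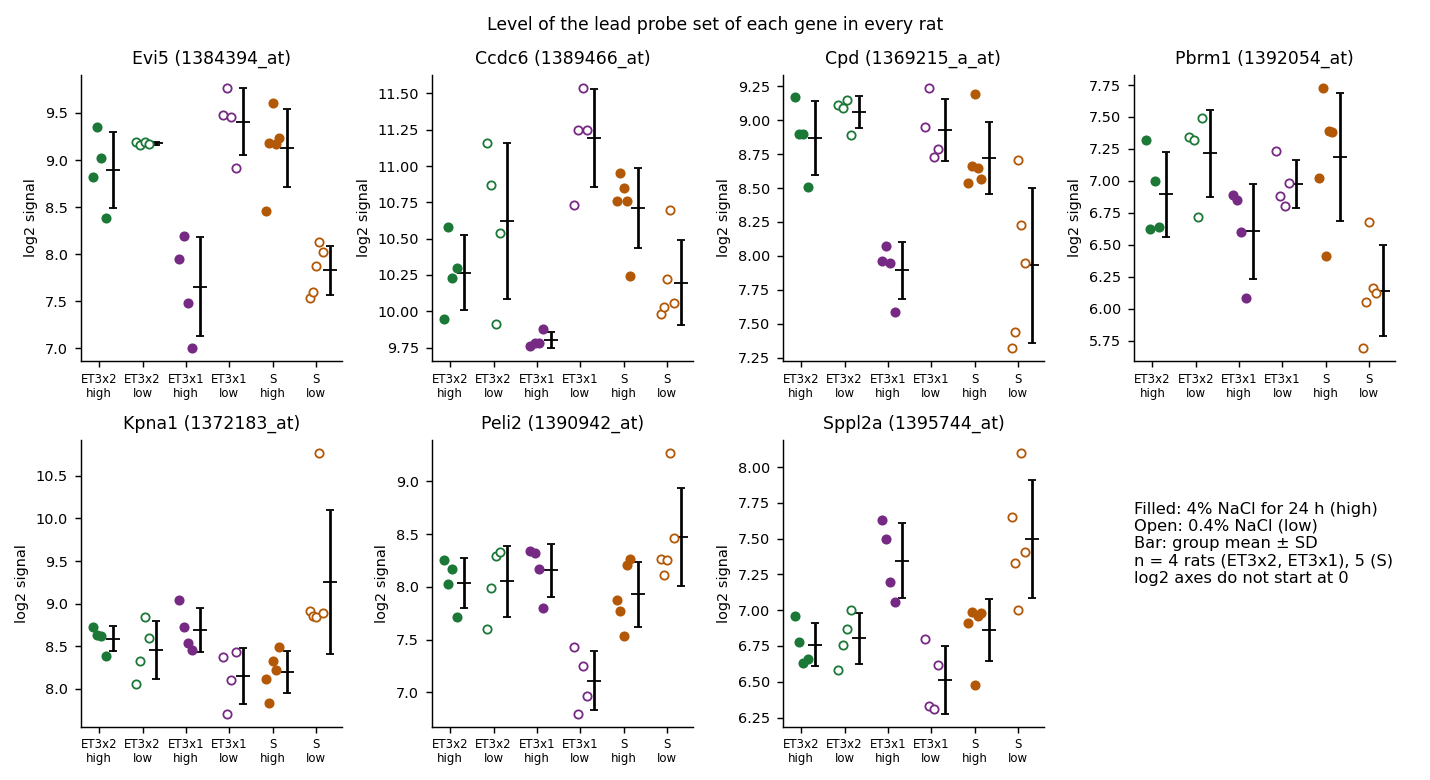
Log2 signal (y axis) of the lead probe set of each gene in every rat, by strain and diet (x axis); points are rats, filled on high and open on low salt, and bars are group means ± SD (n = 4 in ET3x2 and ET3x1, 5 in S). In the top row the high-salt points lie mostly below the low-salt points in ET3x1 and mostly above them in S, and in the bottom row this is mostly turned round, with S low-salt rat 4 at 10.77 for Kpna1.

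Evi5 showed the widest swing (probe set 1384394_at). In ET3x2 its log2 levels were 8.82, 9.35, 9.02 and 8.38 on high salt, against 9.19, 9.16, 9.19 and 9.17 on low salt. In ET3x1 they were 7.95, 8.19, 7.48 and 7.0 on high salt, against 9.48, 9.77, 9.46 and 8.92 on low salt. In S they were 8.46, 9.18, 9.61, 9.17 and 9.23 on high salt, against 7.53, 7.60, 7.87, 8.13 and 8.02 on low salt. All ET3x1 rats on high salt were below all on low salt, all S rats on high salt were above all on low salt, and the ET3x2 diets overlapped. The difference between diets, high minus low, was -0.29 ± 0.23 in ET3x2, -1.75 ± 0.23 in ET3x1 and 1.30 ± 0.20 in S (± standard error of the limma fit). On the linear scale the ET3x1 level on high salt was 0.297 times that on low salt, and the S level 2.46 times. In the order of group means, the top 4 groups (ET3x1 low, ET3x2 low, S high and ET3x2 high) each differed from the next by less than the larger SD of the pair, as did the lowest pair, S low and ET3x1 high, and a gap of 1.06 separated them.

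Ccdc6 has a single probe set (1389466_at). In ET3x2 its levels were 9.95, 10.58, 10.23 and 10.30 on high salt, against 11.16, 10.87, 9.91 and 10.54 on low salt. The ET3x1 rats had 9.76, 9.78, 9.78 and 9.88 on high salt, against 10.73, 11.25, 11.54 and 11.25 on low salt. The S rats had 10.76, 10.95, 10.85, 10.76 and 10.24 on high salt, against 9.98, 10.03, 10.22, 10.70 and 10.06 on low salt. The diets were apart in ET3x1 and overlapped in the other two strains. The 4 ET3x1 rats on high salt had an SD of 0.05, and in S the lowest rat on high salt lay inside the range of the low-salt rats. The differences were -0.36 ± 0.20 in ET3x2, -1.39 ± 0.20 in ET3x1 and 0.51 ± 0.18 in S.

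Cpd followed Evi5 closely (1369215_a_at). In ET3x2 its levels were 9.17, 8.90, 8.90 and 8.51 on high salt, against 9.11, 9.09, 9.15 and 8.89 on low salt. ET3x1 rats were at 7.96, 8.07, 7.95 and 7.59 on high salt, against 8.95, 9.24, 8.73 and 8.79 on low salt. S rats were at 8.54, 8.66, 9.19, 8.65 and 8.57 on high salt, against 7.32, 7.44, 8.71, 8.23 and 7.95 on low salt. Again the diets were apart in ET3x1, while S low-salt rat 3, at 8.71, was above 4 of the 5 S rats on high salt. The differences were -0.19 ± 0.20 in ET3x2, -1.03 ± 0.20 in ET3x1 and 0.79 ± 0.18 in S.

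Pbrm1 was the weakest mirror of the set (1392054_at). In ET3x2 its levels were 7.32, 6.62, 7.0 and 6.64 on high salt, against 7.34, 7.32, 6.72 and 7.49 on low salt. For ET3x1 the levels were 6.89, 6.85, 6.60 and 6.08 on high salt, against 7.23, 6.88, 6.80 and 6.98 on low salt. For S the levels were 7.02, 7.73, 6.41, 7.39 and 7.38 on high salt, against 5.69, 6.05, 6.68, 6.16 and 6.12 on low salt. The diets overlapped in all 3 strains, by 1 rat of each diet in S. The differences were -0.32 ± 0.23 in ET3x2, -0.37 ± 0.23 in ET3x1 and 1.04 ± 0.20 in S, and the ET3x2 response minus that of ET3x1 was 0.05 ± 0.32. Without ET3x1 high-salt rat 4, the lowest of that group, the ET3x1 difference was -0.19.

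Kpna1 opened the other set (1372183_at). In ET3x2 its levels were 8.72, 8.63, 8.62 and 8.38 on high salt, against 8.06, 8.33, 8.84 and 8.60 on low salt. Those of ET3x1 were 9.04, 8.72, 8.54 and 8.45 on high salt, against 8.37, 7.71, 8.10 and 8.43 on low salt. Those of S were 8.11, 7.83, 8.33, 8.22 and 8.49 on high salt, against 8.91, 8.86, 8.84, 10.77 and 8.89 on low salt. All S rats on high salt were below all on low salt, and 1 rat, S low-salt rat 4, stood far above the other 4. The differences were 0.13 ± 0.28 in ET3x2, 0.54 ± 0.28 in ET3x1 and -1.06 ± 0.25 in S, and without S low-salt rat 4 the S value was -0.68. ET3x1 rats did not overlap either, but by as little as 8.45 on high salt against 8.43 on low salt.

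The Peli2 response was widest in ET3x1 (1390942_at). In ET3x2 its levels were 8.25, 8.03, 8.17 and 7.71 on high salt, against 7.60, 7.99, 8.29 and 8.33 on low salt. ET3x1 levels were 8.34, 8.32, 8.17 and 7.80 on high salt, against 7.43, 6.80, 7.25 and 6.97 on low salt. S levels were 7.88, 7.77, 7.53, 8.21 and 8.26 on high salt, against 8.26, 8.11, 8.25, 9.27 and 8.46 on low salt. ET3x1 on low salt was apart from the other 5 groups, 0.82 below the next group mean, while the S diets overlapped. The differences were -0.01 ± 0.20 in ET3x2, 1.04 ± 0.20 in ET3x1 and -0.54 ± 0.18 in S, the last being -0.34 without S low-salt rat 4.

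For Sppl2a the diets were apart both in ET3x1 and in S (1395744_at). In ET3x2 its levels were 6.96, 6.78, 6.63 and 6.66 on high salt, against 6.58, 6.76, 6.87 and 7.0 on low salt. In ET3x1 rats it stood at 7.63, 7.5, 7.20 and 7.06 on high salt, against 6.80, 6.33, 6.31 and 6.62 on low salt. In S rats it stood at 6.91, 6.99, 6.48, 6.96 and 6.98 on high salt, against 7.65, 7.33, 7.0, 8.10 and 7.41 on low salt. The highest S rat on high salt, at 6.99, was just below the lowest on low salt, at 7.0. The differences were -0.05 ± 0.17 in ET3x2, 0.83 ± 0.17 in ET3x1 and -0.64 ± 0.15 in S, the last being -0.49 without S low-salt rat 4.

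The difference between the salt responses of ET3x1 and S was -3.05 ± 0.30 for Evi5, -1.91 ± 0.27 for Ccdc6, -1.82 ± 0.27 for Cpd and -1.41 ± 0.30 for Pbrm1. It was 1.60 ± 0.37 for Kpna1, 1.58 ± 0.27 for Peli2 and 1.47 ± 0.22 for Sppl2a. By absolute size these ranked between place 2 (Evi5) and place 30 (Pbrm1) among 15473 tested probe sets. The response of ET3x2 minus that of ET3x1 lay between -1.06 ± 0.29 (Peli2) and 1.47 ± 0.32 (Evi5), and that of ET3x2 minus S between -1.59 ± 0.30 (Evi5) and 1.19 ± 0.37 (Kpna1). These comparisons share the S or the ET3x1 rats. Rats of the 2 diets did not overlap for 0 of 7 leads in ET3x2 (6.62% of all tested probe sets), 6 in ET3x1 (20.0%) and 3 in S (3.54%). The genes were chosen for these responses and the leads for a wide span, so nothing is read from these counts.

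Over all tested probe sets, limma with Benjamini-Hochberg adjustment over both chips and a limit of 0.05 on the adjusted p called 0.304% for salt in ET3x2, 15.9% in ET3x1 and 2.78% in S. For differences between salt responses it called 5.49% for ET3x1 minus S, 0.304% for ET3x2 minus ET3x1 and 0.0194% for ET3x2 minus S. It called 35 (0.226%) in both S and ET3x1 with opposite signs, of which 32 were not probe sets of the 7 genes, against 107 called in both with the same sign. Across all tested probe sets the responses of S and ET3x1 had a Pearson correlation of 0.20, those of ET3x2 and ET3x1 one of 0.40, and 46.4% had opposite signs in S and ET3x1. These correlations are over probe sets of the same arrays, which are not independent replicates.

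**Figure D2:**
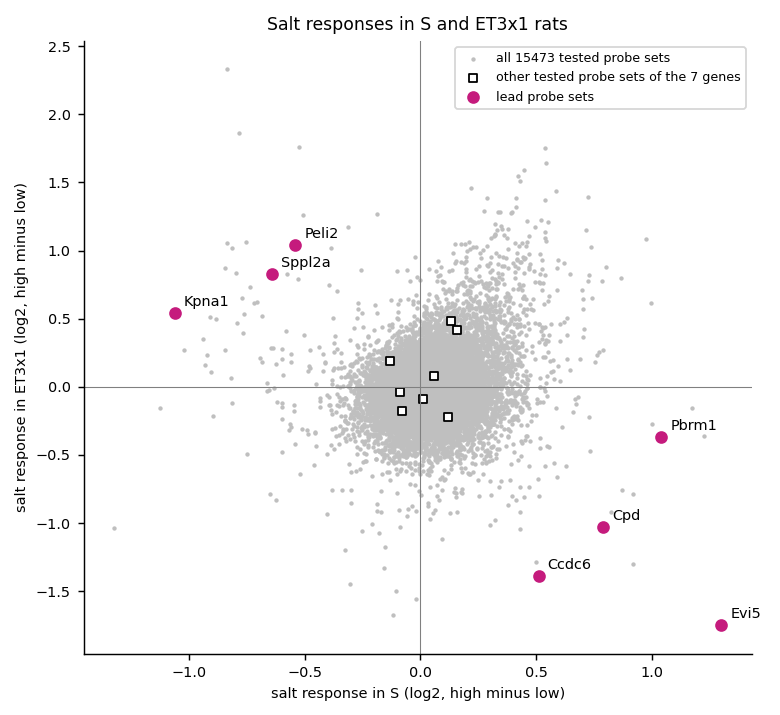
Salt response (log2, high minus low) in S rats (x axis) and in ET3x1 rats (y axis) of all 15473 tested probe sets (grey), the 7 lead probe sets (filled circles) and the 8 other tested probe sets of the same genes (open squares). The leads lie far out in the upper left and lower right, and the other probe sets lie within the main cloud.

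The salt responses of the other probe sets of these genes spanned less than those of the leads, as the rule that chose the leads requires. There were 14 of them, for 6 genes (Ccdc6 had 1 probe set only), and 8 were bright enough to be tested. Their salt responses lay between -0.15 and 0.26 in ET3x2, between -0.48 and 0.48 in ET3x1 and between -0.23 and 0.16 in S. The median absolute response was 0.06 in ET3x2, 0.17 in ET3x1 and 0.10 in S. In ET3x1 the Pbrm1 probe sets 1383885_at and 1395306_at had larger absolute responses than their lead. Signs were opposite in S and ET3x1 for 4 of the 14, and 3 of the 14, of Cpd, Sppl2a and Pbrm1, had the sign of their lead in all 3 strains.

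**Figure D3:**
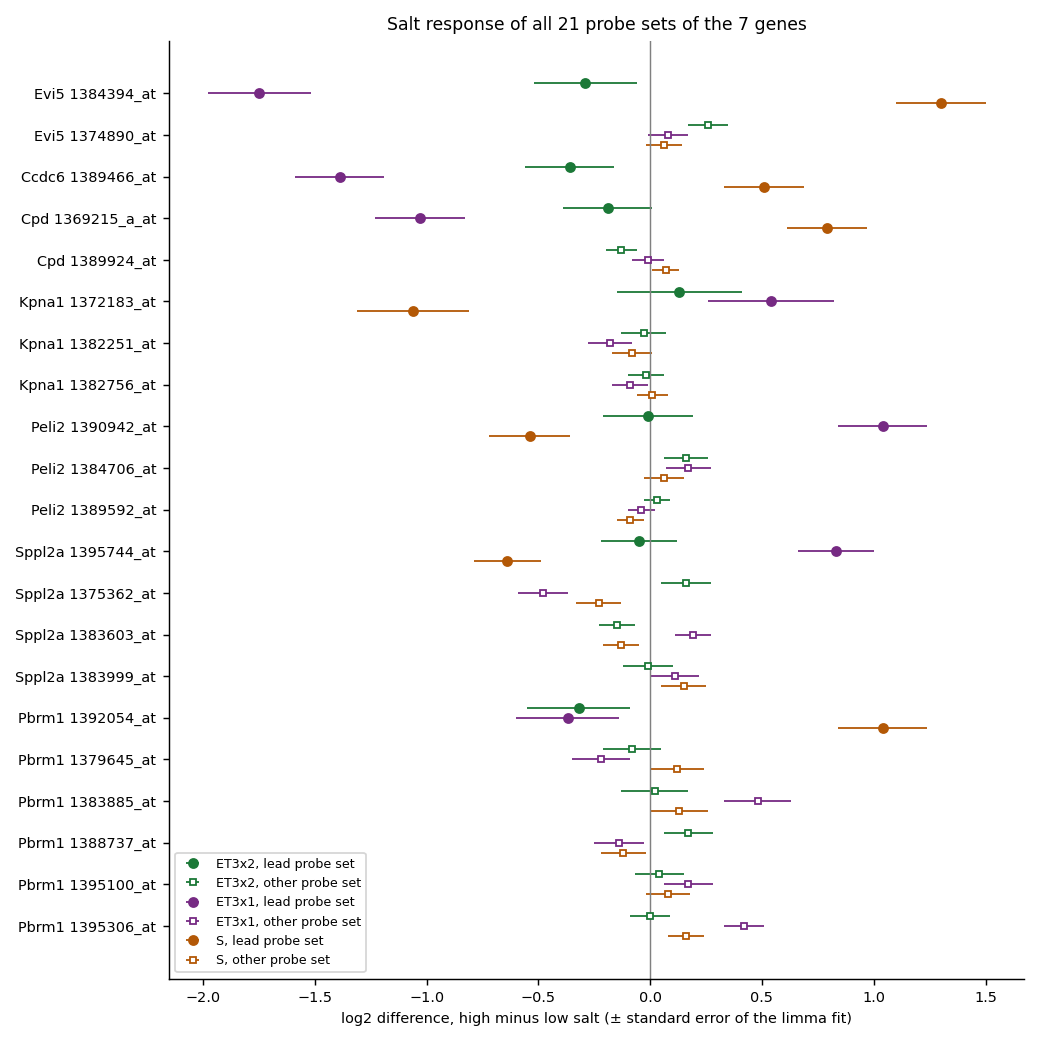
Salt response (x axis, log2, high minus low, ± standard error of the limma fit) of all 21 probe sets (rows) in ET3x2, ET3x1 and S rats; filled circles are lead and open squares other probe sets. Only the lead row of each gene has S and ET3x1 far apart on either side of 0, and the remaining rows lie between -0.48 and 0.48.

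For Evi5, Kpna1 and Peli2 the probe sets of 1 gene disagreed, also where both passed the filter. Evi5 1374890_at had responses of 0.26 ± 0.09 in ET3x2, 0.08 ± 0.09 in ET3x1 and 0.06 ± 0.08 in S. Peli2 1389592_at had 0.03 ± 0.06 in ET3x2, -0.04 ± 0.06 in ET3x1 and -0.09 ± 0.06 in S. The other 2 Kpna1 probe sets stayed within 0.18 of no difference in every strain.

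Pbrm1 had the most probe sets and 2 patterns among them. The lead and 1379645_at shared signs in every strain (-0.08 ± 0.13 in ET3x2, -0.22 ± 0.13 in ET3x1 and 0.12 ± 0.12 in S for 1379645_at). In contrast, 1383885_at (0.48 ± 0.15) and 1395306_at (0.42 ± 0.09) had positive responses in ET3x1, where that of the lead was -0.37, and for both all 4 rats on high salt were above all 4 on low salt. For Sppl2a, 1383603_at had the lead's sign in every strain, with -0.15 ± 0.08 in ET3x2, 0.19 ± 0.08 in ET3x1 and -0.13 ± 0.08 in S. The Cpd probe set 1389924_at, too dim to be tested, did so as well, with -0.13 ± 0.07, -0.01 ± 0.07 and 0.07 ± 0.06 in these strains. The dim Sppl2a probe set 1375362_at went against the lead in ET3x1, with -0.48 ± 0.11, and all 4 rats on high salt were below all 4 on low salt. The files used here do not give the place of each probe set in its transcript.

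Beyond the 7 genes, the other probe sets of genes with such a call were looked up as well. The 32 probe sets called with opposite signs included 21 named genes. For 17 of the 21 another probe set was tested, and for 0 of these 17 was another one also called with opposite signs by limma, where 2 had one at an unadjusted p below 0.05 in both strains. For 13 another probe set had opposite signs, as had 46.4% of all tested probe sets. With 0.226% of probe sets called with opposite signs, a second call in the same gene would be rare. The 0 of 17 therefore does not show that probe sets disagreed.

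Measures of RNA and array quality also moved with the diet in ET3x1 and in part in ET3x2, although none of 18 exact permutation tests passed after adjustment, and they are given beside these responses. The log2 ratio of the 3′ to the 5′ Gapdh control on RAE230A was 0.594 ± 0.0265 on high and 0.877 ± 0.0994 on low salt in ET3x1 (SD, n = 4 each; exact permutation p = 0.02857, the smallest that 4 against 4 rats allow; adjusted over 18 tests 0.0643). In ET3x2 it was 0.747 on high and 0.948 on low salt, and in S 0.812 and 0.827. On RAE230B, which holds the leads of Evi5, Peli2, Sppl2a and Pbrm1, it was 0.589 on high and 0.766 on low salt in ET3x2 (exact permutation p = 0.02857), 0.422 and 0.785 in ET3x1 (exact permutation p = 0.02857) and 0.661 and 0.726 in S. The beta-actin ratio on that chip was 0.530 on high and 0.846 on low salt in ET3x2, 0.300 and 0.924 in ET3x1 and 0.699 and 0.938 in S, and on RAE230A it was 0.878 and 1.05 in ET3x2, 0.609 and 1.22 in ET3x1 and 0.923 and 1.14 in S. On RAE230A the spike-in measure bioD minus bioC was 3.08 on high and 2.54 on low salt in ET3x1. In S it was 2.37 ± 0.70 on high and 2.83 ± 0.11 on low salt, and in ET3x2 2.665 and 2.294. On RAE230B it was 3.03 on high and 2.23 on low salt in ET3x1 (exact permutation p = 0.02857), 2.30 and 2.54 in S and 2.16 and 2.28 in ET3x2. With the Gapdh ratio as a covariate, the ET3x1 response was -0.03 for Kpna1, no longer opposite to S, 0.59 for Peli2, 0.48 for Sppl2a and -0.77 for Pbrm1. With bioD minus bioC as a covariate the Pbrm1 response in ET3x1 turned to 0.32, again not opposite to S. In ET3x1, and for the 3′ to 5′ ratios on RAE230B in ET3x2, these measures ran with the diet, and their parts in the responses cannot be told apart. Evi5 stayed between -1.77 and -1.56, Ccdc6 between -1.52 and -1.16 and Cpd between -1.06 and -0.94 in ET3x1 under all settings tried on the whole set of rats. Probe sets called for the ET3x1 minus S difference numbered 27 with the Gapdh covariate and 58 with bioD minus bioC, against 850 without. Within groups, none of the 7 leads passed a test against the Gapdh ratio over the 26 rats (lowest permutation p adjusted over 7 relations 0.217). Pearson's r was -0.33 for Kpna1, -0.35 for Peli2, -0.34 for Sppl2a and -0.28 for Pbrm1. For Evi5, Ccdc6 and Cpd it was 0.14, 0.19 and 0.01. Pbrm1 alone followed bioD minus bioC (Pearson r = -0.58, permutation adjusted p = 0.015; Spearman rho = -0.40, adjusted p = 0.321), and r was -0.35 without the 2 rats farthest from the median.

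Averaged over both diets, which did not enter the choice of the genes, 3 of the 7 leads differed between ET3x2 and S, where limma called 28.5% of probe sets. Cpd averaged 8.96 over 8 ET3x2 and 8.33 over 10 S rats (0.64 ± 0.14, limma adjusted p = 0.00149), and 8 of 8 ET3x2 rats were above the S mean. Evi5 averaged 9.03 and 8.48 (0.56 ± 0.15, limma adjusted p = 0.0083; 7 of 8 rats). Sppl2a was lower, at 6.78 against 7.18 (-0.40 ± 0.11, limma adjusted p = 0.00871; 8 of 8 rats). Pbrm1 just missed the limit (0.40 ± 0.15, limma adjusted p = 0.0504). These averages rested on low salt: the difference was 0.15 on high and 1.13 on low salt for Cpd, -0.24 on high and 1.35 on low salt for Evi5, and -0.11 on high and -0.70 on low salt for Sppl2a. This split between the diets contains the salt responses that chose the genes, and only the averages were tested.

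In ET3x1 against S, where 32.3% of probe sets were called, 1 lead was called. Peli2 averaged 7.63 in ET3x1 and 8.20 in S (-0.57 ± 0.14, limma adjusted p = 0.00304), with differences of 0.22 on high and -1.36 on low salt. For the other 6 leads the average over diets differed by between -0.30 (Kpna1) and 0.13 (Pbrm1), with high-salt and low-salt values of opposite sign in each. For Evi5 these were -1.47 on high and 1.58 on low salt, and the average was 0.05 ± 0.15. The opposite signs of the high-salt and low-salt values follow in part from the choice of the genes, and only the averages were tested. Evi5 (9.03 in ET3x2 and 8.53 in ET3x1, 0.50 ± 0.16, limma adjusted p = 0.0424) and Cpd (8.96 and 8.41, adjusted p = 0.0162) were higher in ET3x2 than in ET3x1, where 11.1% of probe sets were called. With the Gapdh ratio as a covariate the differences were about as large, at 0.46 for Evi5 and 0.55 for Cpd, but both calls were lost (limma adjusted p = 0.121 and 0.0801). With bioD minus bioC the Evi5 call was lost at a difference of 0.51 (limma adjusted p = 0.14). The Evi5 call was also lost on leaving out any of 12 single rats, at 0.39 to 0.52 and a limma adjusted p of up to 0.0987. These were the ET3x2 rats other than high-salt rat 4, ET3x1 high-salt rats 3 and 4, and ET3x1 low-salt rats 1, 3 and 4.

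Among the 8 other tested probe sets, 4 were called for ET3x2 against S and all 4 were lower in ET3x2. They were Pbrm1 1383885_at (7.06 in ET3x2 and 7.51 in S; -0.46 ± 0.10, limma adjusted p = 0.00151), Pbrm1 1395306_at (-0.29 ± 0.06, 0.00154), Evi5 1374890_at (-0.25 ± 0.06, 0.00288) and Peli2 1389592_at (-0.22 ± 0.04, 0.000581). Evi5 1374890_at and Peli2 1389592_at were also lower in ET3x1 than in S (-0.23 ± 0.06 and -0.12 ± 0.04, limma adjusted p = 0.00367 and 0.0318). For ET3x2 against ET3x1 limma called 0 of the 8, and 4 had an unadjusted p below 0.05, as had 4387 of all 15473 tested probe sets. The 2 Evi5 probe sets thus went in opposite directions for ET3x2 against S, the lead higher and the other lower. The Peli2 probe sets were both lower in ET3x1 than in S.

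**Figure D4:**
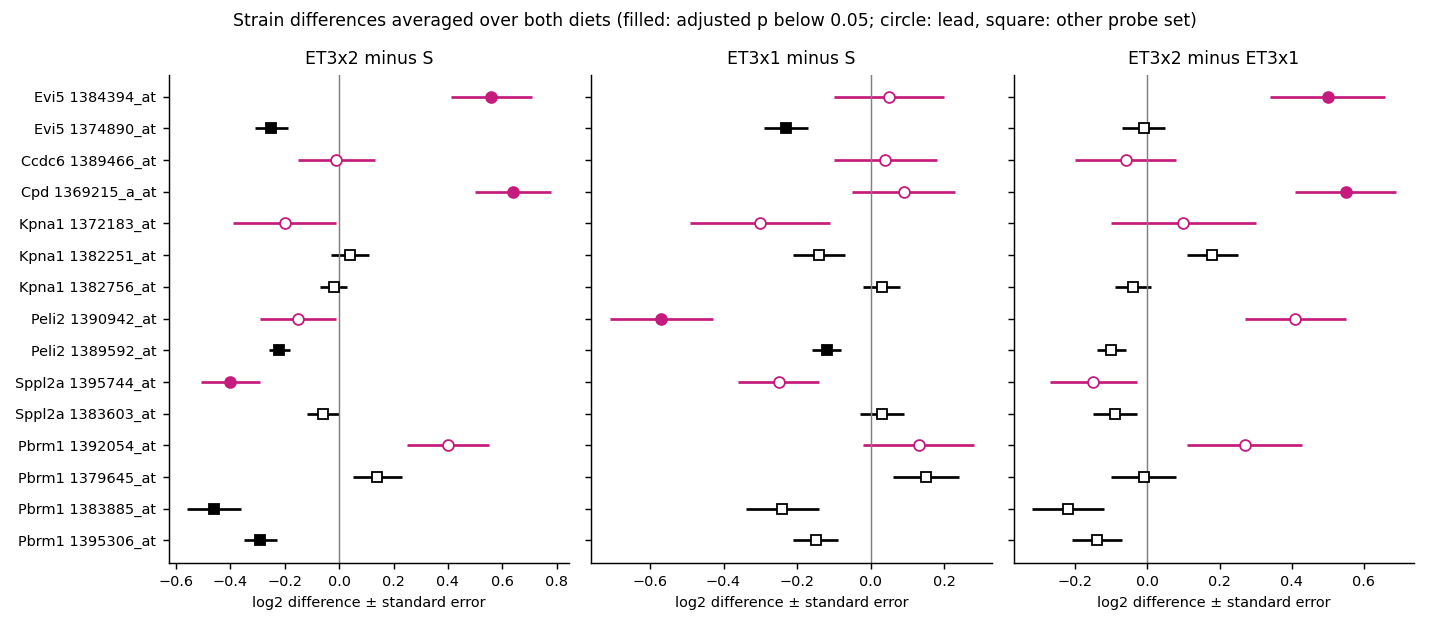
Strain differences averaged over both diets (x axis, log2, ± standard error of the limma fit) of the 15 tested probe sets (rows); circles are lead and squares other probe sets, filled where the limma adjusted p was below 0.05. In ET3x2 minus S the called leads Evi5 and Cpd lie to the right, at 0.56 and 0.64, and the 4 called other probe sets lie between -0.46 and -0.22.

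Deviations of single rats from the mean of their strain and diet group were then compared between the leads, which asks whether the genes vary together among rats that were treated alike. Of 21 pairs 4 passed (permutation test with 100000 resamples, two-sided, adjusted over the 21 pairs). The shuffle took the deviations of the 26 rats as independent. With 6 group means removed, its p-values are somewhat too small, here and in the other within-group tests, and unequal group spreads were not allowed for. How often other pairs of tested probe sets correlate this strongly within groups was not computed, so these relations do not set the 7 genes apart. Kpna1, Peli2 and Sppl2a, the set with negative salt responses in S, were correlated with one another. Pearson's r was 0.80 for Kpna1 with Peli2 (rho 0.73, permutation adjusted p = 0.00021 and 0.00084), 0.76 for Peli2 with Sppl2a (rho 0.72, 0.00021 and 0.00084) and 0.70 for Kpna1 with Sppl2a (rho 0.63, 0.00077 and 0.00525). Evi5 and Cpd, of the other set, were correlated at r = 0.59 (rho 0.59, permutation adjusted p = 0.00824 and 0.00887). Without the 2 rats farthest from the median of the first gene, r was 0.68, 0.65, 0.54 and 0.57 for these pairs. Kpna1 and Peli2 lie on different chips, read from separate hybridisations of the same RNA, as do Kpna1 and Sppl2a, and Evi5 and Cpd; Peli2 and Sppl2a share RAE230B.

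S low-salt rat 4 was the highest rat of its group for Kpna1 (10.77), Peli2 (9.27), Sppl2a (8.10), Ccdc6 (10.70) and Evi5 (8.13). Without it the 4 pairs had r of 0.67, 0.64, 0.51 and 0.57 and still passed this test, Kpna1 with Sppl2a at a permutation adjusted p of 0.03. In addition, Ccdc6 then ran against Kpna1 (r = -0.66, permutation adjusted p = 0.00483), Peli2 (-0.60, 0.00714) and Sppl2a (-0.50, 0.03), relations that had r of 0.01, -0.20 and -0.16 and rho of -0.24, -0.39 and -0.37 with all 26 rats. Since these p-values are somewhat too small, the passes at a permutation adjusted p of 0.03, of Sppl2a with Kpna1 and with Ccdc6, are uncertain. Pbrm1 passed with no other gene in either case. Each lead was also set against the other probe sets of its own gene, which gave 14 relations. Only Pbrm1 1392054_at and 1379645_at passed (r = 0.68, rho = 0.66, permutation adjusted p = 0.0021 and 0.0049; r = 0.65 without 2 rats). The lead of Evi5 and its other probe set had r = -0.07.

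**Figure D5:**
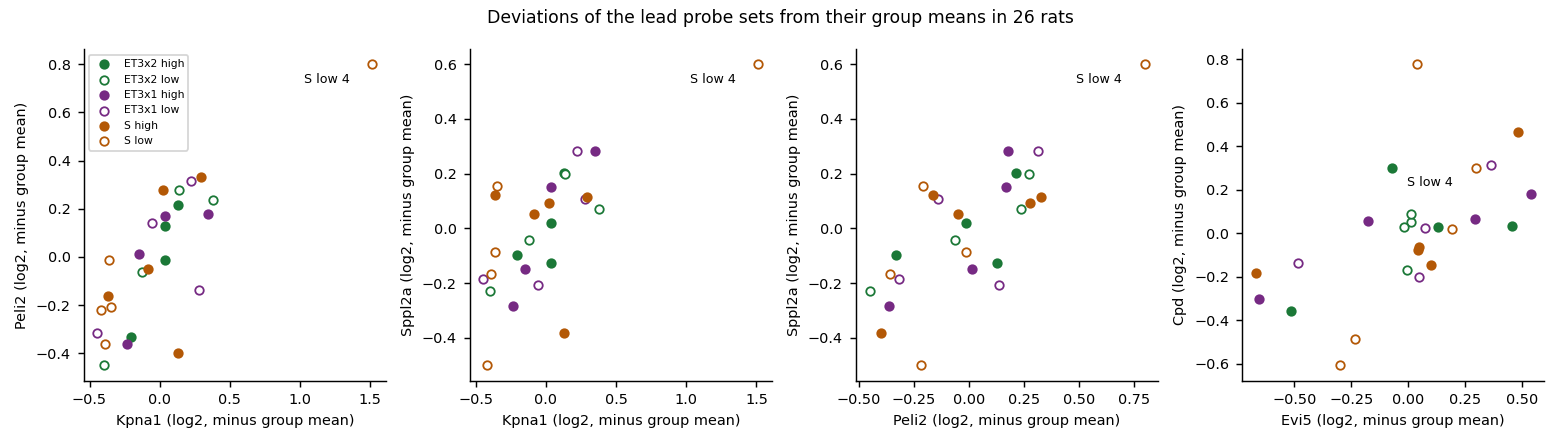
Deviation of each of 26 rats from its group mean (log2) for the 4 pairs of lead probe sets that passed, 1 gene on each axis; colours are strains, filled points high and open points low salt. S low-salt rat 4 lies at the upper right in the panels of Kpna1, Peli2 and Sppl2a, and the remaining rats still run upward.

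The genes whose levels over the 26 rats were most like a lead, by Pearson's r, differed between the mirrored sets. For Evi5 they were Lpgat1 (0.91), Tns1 (0.89) and Cpd itself (0.88), and for Cpd Esf1 (0.93), Tns1 (0.92) and Desi2 (0.90). For Ccdc6 they were Abcd3 (0.84), Slc12a3 (0.83), the thiazide-sensitive sodium chloride cotransporter of the distal tubule, and Txlna (0.83). Slc12a3 had salt responses of -0.10 in ET3x2, -0.50 in ET3x1 and 0.16 in S. For Pbrm1 they were Srebf1 (0.82), Piezo1 (0.80) and Stat3 (0.78). For Kpna1 they were Ythdf2 (0.96), Dync1li1 (0.95) and Ube3a (0.94), which were 0.88, 0.86 and 0.85 without S low-salt rat 4. For Peli2 they were Map3k12 (0.93), Gnb1 (0.88) and Vcl (0.85), and for Sppl2a Wtap (0.85), Vcl (0.82) and Peli2 (0.81). Vcl, which encodes the focal adhesion protein vinculin, had responses of 0.33 in ET3x2, 1.02 in ET3x1 and -0.81 in S. Tns1, which encodes tensin of the same adhesions, had the mirror image of -0.23, -1.30 and 0.92. These likenesses contain the group differences that chose the genes and carry no test.

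The known partners of the 7 proteins are described by lists. The 7 lists, chosen with earlier results known, held 128 tested genes of nuclear import, SWI/SNF complexes, Pellino and Toll-like receptor signalling, intramembrane proteolysis, prohormone trimming, TBC proteins with Rab11, and the DNA damage partners of Ccdc6, with the 7 genes left out. For the ET3x1 minus S difference 1 was called higher and 10 lower (8.59%, background 5.49%). Over all tested probe sets 219 were called higher and 631 lower for it, so a lower call is not particular to these lists. For salt in ET3x1 9 were called higher and 14 lower (18.0%, background 15.9%), and in S 2 higher and 1 lower (2.34%, background 2.78%). The called genes are named next, having been chosen after their values were seen. Whether their calls for ET3x1 minus S held with the Gapdh ratio or bioD minus bioC as a covariate was not computed. With these covariates limma called 27 and 58 of all tested probe sets for that difference, against 850 without.

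In the Toll-like receptor list 3 of 19 tested genes were called for the ET3x1 minus S difference, all lower, and the list's median was -0.07, against -0.05 over all tested probe sets. Nfkbia, the inhibitor of NF-kB, had salt responses of -0.13 in ET3x2, -0.28 ± 0.11 in ET3x1 and 0.43 ± 0.10 in S (difference -0.71 ± 0.15, limma adjusted p = 0.00886). Ube2n, a ubiquitin-conjugating enzyme that works with such ligases, had a difference of -0.58 ± 0.15 (0.022) and a response of 0.46 ± 0.10 in S. Tab1, a partner of the kinase TAK1, had -0.42 ± 0.10 (0.0198). Nfkbia and Ube2n were the 2 list genes called higher on high salt in S, opposite in sign to the Peli2 lead.

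In the SWI/SNF list 3 of 21 were called, again all lower, with a median of -0.20. They were the subunit genes Bcl7a (-0.64 ± 0.14, limma adjusted p = 0.00889), Bcl7c (-0.61 ± 0.17, 0.0387) and Smarcd2 (-0.34 ± 0.09, 0.024). This was the direction of the Pbrm1 lead and of most calls over all tested probe sets. With the probe sets of each gene averaged, that list's median was -0.06. In the list of intramembrane proteolysis (15 tested, median -0.24, or -0.13 by the mean of probe sets) Adam10, a sheddase that prepares substrates for such proteases, was higher (0.64 ± 0.19, 0.0425) and Psenen, a gamma-secretase subunit, lower (-0.45 ± 0.10, 0.0129). Psenen was also the only list gene called for the response of ET3x2 minus that of ET3x1 (0.49 ± 0.11, limma adjusted p = 0.0481). That is 1 of 128 (0.781%, background 0.304%). With the Gapdh ratio as a covariate the Psenen call was lost, as limma then called 0 of all tested probe sets for this difference. Of 25 TBC and Rab11 genes Tbc1d13 (-0.44 ± 0.11, 0.0266) and Rab11fip5 (-0.49 ± 0.11, 0.00989) were lower, and of 15 partners of Ccdc6 the deubiquitinase gene Usp7 was (-0.63 ± 0.19, 0.0447), whose 2 other tested probe sets had -0.57 and -0.87. No gene of nuclear import (21 tested) or of prohormone trimming (12 tested) was called for this difference by limma, with 4 of each at an unadjusted p below 0.05. Over all tested probe sets 3522 of 15473 had such a p. In nuclear import Ipo9 (0.31 ± 0.10, limma adjusted p = 0.0627) and Ipo5 (0.06 ± 0.12, 0.79), and in prohormone trimming Pcsk7 (-0.29 ± 0.10, 0.0746) and Cpz (0.20 ± 0.12, 0.322), are named by the rule for lists with few calls. That rule takes the smallest p for the response of ET3x2 minus that of ET3x1. The values in brackets are for ET3x1 minus S and did not choose these genes. The same rule named Bcl7a, Bicral, Irak2, Tab1, Adam10, Tbc1d14, Tbc1d15, Ywhaq and Ppp4r3a. For the response of ET3x2 minus that of ET3x1 these 13 genes had differences between -0.61 (Irak2) and 0.61 (Bcl7a), none called (lowest limma adjusted p 0.057).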

How the data were processed

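The authors deposited log2 values for both chips, and the method of summary and normalization is not given in the sources used here; per the labels, total RNA of single kidneys was labelled as biotin cRNA. Each rat was 1 replicate. Nothing pairs rats between groups, so p-values measure the spread between these rats.

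Each chip was fitted with limma 3.58.1 in R 4.3.3, with 6 strain and diet groups, an intensity trend and 20 residual degrees of freedom, on probe sets with a mean at or above the chip's median (7.51 and 6.38). Benjamini-Hochberg adjustment ran over both chips (15473 probe sets, of 8825 genes). The fit was tested on simulated data. Symbols came from the platform annotation, updated through RefSeq's GRCr8 table. Of the 21 probe sets of the 7 genes 15 were tested and 6 were too dim.

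The 7 genes, the lists and the tests were chosen with earlier results of these data known. Named are the members, the 3 genes most like each lead, and from each list up to 4 genes called for the salt response of ET3x2 minus ET3x1, or the 2 of smallest p where fewer than 2 were called. Relations of the leads with other probe sets of the gene, with the Gapdh ratio and with bioD minus bioC, and likeness without 1 rat, were added after the data were seen. The number of arrays limits the precision.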

Additional observations from a re-analysis of the deposited data

Results flagged for a closer look

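Of 42 groups of rats examined for the 7 leads, 5 held a rat far from the others, where chance gives about 1 in 20. Ccdc6 was high in ET3x1 high-salt rat 4 (9.88), though the others of that tight group lay close by, at 9.76 to 9.78. It was low in S high-salt rat 5 (10.24). Cpd was high (9.19) and Sppl2a low (6.48) in the same animal, S high-salt rat 3. Kpna1 was high in S low-salt rat 4 (10.77). Among the list genes, the salt response of Psenen differed between ET3x2 and ET3x1 by 0.49, by limma's test of the difference itself. That call was lost with the Gapdh ratio as a covariate, where 0 of all tested probe sets were called for this difference.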

How the results depend on the processing

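No paired analysis was possible because rats of different groups share no replicate number in the labels. The lead salt responses moved by less than the spread between rats on leaving out any single rat, though some moved by over 1.5 times. The S response was -0.68 for Kpna1 and -0.34 for Peli2 without S low-salt rat 4, and the ET3x1 response of Pbrm1 was -0.19 without ET3x1 high-salt rat 4. The small ET3x2 responses also did, for Evi5 to -0.12 and Cpd to -0.07 without ET3x2 high-salt rat 4, for Ccdc6 to -0.18 without ET3x2 low-salt rat 1 and -0.60 without rat 3, and for Pbrm1 to -0.49 without ET3x2 low-salt rat 3; over single rats they lay between 0.00 and 0.26 for Kpna1, -0.16 and 0.10 for Peli2 and -0.12 and 0.02 for Sppl2a. Of the strain averages called for the leads, those of ET3x2 and ET3x1 against S were called under every setting in which they were tested; among the brightest 25% of probe sets only the leads of Evi5, Ccdc6 and Peli2 were. The 6 dim probe sets carry no test. Pbrm1 in ET3x2 against S was also called with quantile normalization (adjusted p = 0.0437), with array weights (0.00615) and without any of 8 single rats (S high-salt 2, 4 and 5, S low-salt 3, ET3x1 high-salt 4, ET3x2 high-salt 2 and 4, ET3x2 low-salt 3). Peli2 for ET3x2 minus ET3x1 (0.45, 0.0232 with array weights; also without S low-salt rat 4 or ET3x2 low-salt rat 1) and Sppl2a for ET3x1 minus S (-0.34, 0.0355 with the Gapdh covariate; also without S high-salt rat 3, S low-salt rat 3, ET3x1 high-salt rat 1 or ET3x1 low-salt rat 1) became called. Uncalled averages that changed sign were Ccdc6 for ET3x2 minus S (0.00 with quantile normalization, 0.02 with array weights, -0.10 to 0.10 without single rats), for ET3x1 minus S (-0.01 with quantile normalization, -0.02 to 0.12 without single rats) and for ET3x2 minus ET3x1 (0.01 with quantile normalization, -0.15 to 0.06 without single rats), Pbrm1 for ET3x2 minus ET3x1 (-0.09 with bioD minus bioC) and Evi5 for ET3x1 minus S (-0.04 to 0.16 without single rats); the cause was not tested. With the probe sets of a gene averaged, the median ET3x1 minus S salt difference was -0.06 for the SWI/SNF list and -0.13 for intramembrane proteolysis.

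Counts of called probe sets moved with the filter (fewer or more probe sets tested), array weights and covariates; for weights and covariates the cause was not tested. Averaged over diets, ET3x2 minus S had 7702 with no filter, 2346 among the brightest 25% and 3376 to 4898 without single rats; ET3x1 minus S had 9427, 2460 and 4122 to 5225. ET3x2 minus ET3x1 had 3055, 790, 462 with the Gapdh covariate, 633 with bioD minus bioC and 842 to 1951. For salt in S there were 1091 with array weights, 137 with bioD minus bioC and 145 to 1000 without single rats. For salt in ET3x1 there were 1353 among the brightest 25%, 4803 with weights, 6 with Gapdh, 958 with bioD minus bioC and 1353 to 3328. For salt in ET3x2 there were 109 with no filter, 1140 with weights, 0 with Gapdh and 1 to 294. The salt response of ET3x2 minus ET3x1 gave 29 with no filter, 25 among the brightest 25%, 1626 with weights, 0 with Gapdh, 2 with bioD minus bioC and 0 to 361. That of ET3x1 minus S gave 508 among the brightest 25%, 2388 with weights, 27 with Gapdh, 58 with bioD minus bioC and 308 to 1547. That of ET3x2 minus S gave 1 with quantile normalization, 8 with no filter, 416 with weights, 0 with Gapdh, 0 with bioD minus bioC and 0 to 44. Single rats moved a count by over 1.5 times in ET3x2 minus ET3x1 (ET3x1 high-salt 3, low-salt 1), in salt in ET3x1 (high-salt 3, low-salt 2 and 3), and for 7 to 21 rats in each of the other salt comparisons. Pairs of leads that passed numbered 4 to 7 without single rats. With the brightest probe set of each gene, which replaces the leads of Evi5, Peli2 and Pbrm1, 3 pairs passed. Of the 4 pairs named above only Kpna1 with Sppl2a keeps both its probe sets there, so this count does not repeat those pairs.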
